A study of Mus musculus with 6 samples.

Results

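Siglecf-positive neutrophils are the neutrophils of these hearts in which at least 1 transcript of Siglecf, a sialic acid-binding receptor of the Ig superfamily, was captured. They numbered 760 of the 30014 cells that passed the cell filter, of 34940 deposited cells in all. A cell was counted when it held at least 1000 UMIs (unique transcript molecules), 200 genes and at most 20% mitochondrial UMIs, a Csf3r UMI and at least 1% of its UMIs in S100a8 and S100a9. It also had to hold 0 UMIs of Fcgr1, Adgre1, Col1a2 and Cdh5, at least 1 Siglecf UMI and fewer than 5 UMIs over Ifit1, Ifit2, Ifit3 and Rsad2. The cells were thus chosen by the measured levels of these 12 genes, which are no finding. The same rule with 0 Siglecf UMIs gave 4726 Siglecf-negative neutrophils, the comparison population. Of the Siglecf-positive cells, 554 held 1 Siglecf UMI, 147 held 2 and 59 held 3 or more. A neutrophil with 0 UMIs may still express the gene, so the 2 populations are separated by detection.

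The study profiled non-cardiomyocytes of the ventricles, from male mice 8 to 12 weeks old, cell by cell. Mice were wild-type (WT, strain C57BL/6JRj) or lacked Trpm4, a calcium-activated cation channel (KO, strain B6.Cg-Trpm4tm1.2-PG). Hearts were taken 24 h after sham surgery, or 24 h or 72 h after ligation of the left anterior descending artery (LAD), which causes an infarct. Each of these 6 groups is 1 library, made from the cells of 4 pooled mice after thermolysin and papain digestion and sorting of live cells (Calcein-AM and DAPI). The mice of a pool cannot be told apart, the labels name 2 strain designations without saying whether littermates were used, and there was no sham group at 72 h. Differences between conditions or genotypes are thus ratios of single libraries, and their intervals (95%) cover counting error only.

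Neutrophils are the first leukocytes to enter an infarct in large numbers. They carry granule proteins made in the bone marrow, arrive through chemokine receptors such as Cxcr2, and with time in blood and tissue they gain Cxcr4. Siglecf is best known as a marker of eosinophils and alveolar macrophages, and neutrophils that bear it have been described in tumours, inflamed airways and injured tissue.

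The 12 summed profiles (the Siglecf-positive and the Siglecf-negative neutrophils of each library) held between 150183 and 7389686 UMIs. The Siglecf-positive cells numbered 117 in WT sham, 63 in KO sham, 80 in WT and 246 in KO at 24 h after ligation, and 173 in WT and 81 in KO at 72 h. Their median depth was close to that of the Siglecf-negative cells of the same library in sham, with 2350 against 2319.5 UMIs in WT. The gap was widest in WT after ligation, with 3482.5 against 3189 UMIs at 24 h and 2301 against 2121 at 72 h. In KO at 72 h it was 2102 against 2008 UMIs. Median genes per cell at 72 h were 1085 against 946 in WT and 1037 against 872 in KO. Over all kept cells, the KO library at 72 h had the lowest median depth (2182.5 UMIs), and the other 5 lay between 3248 and 8559 UMIs. Pairs of libraries shared at most 14 cell barcodes, which is under 0.21% of the smaller library. Trpm4, the targeted gene, gave 1 UMI in the Siglecf-positive cells, in WT sham, and 0 in the other 5 libraries. A count of 0 allows between 4.16 and 19.98 CPM (UMIs scaled to a common total) in these libraries, so the genotype labels could not be checked within these cells.

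The cells held UMIs of neutrophil markers. The 10 markers, of which the rule used Csf3r, S100a8 and S100a9, summed to between 71926 and 170769 CPM, against 92602 to 179892 CPM in the Siglecf-negative cells, and were higher in the Siglecf-positive cells in 0 of 6 libraries. Ly6g, a surface marker of neutrophils, gave 41 UMIs in 28 of the 760 cells and was at 0 in KO at 72 h, where the Siglecf-negative cells held 1 UMI. Il1r2, a decoy interleukin-1 receptor, was found in 677 cells and Trem1, an activating receptor, in 532. Of the eosinophil markers, Epx, Prg2, Prg3, Ear1 and Alox15 were at 0 UMIs in all 6 libraries. The 9 eosinophil markers summed to between 38.99 and 83.7 CPM, against 45.6 to 86.6 CPM in the Siglecf-negative cells, and 98 of the 115 UMIs were of Cd244a, a receptor that other leukocytes also express. The basophil and mast cell list gave 1 UMI. The 12 monocyte and macrophage markers, of which the rule had set Fcgr1 and Adgre1 to 0, summed to between 719.98 and 2484 CPM, a range that overlapped the 673 to 2961 CPM of the Siglecf-negative cells. UMIs of H2-Aa, H2-Ab1, H2-Eb1 and Cd74, genes of MHC class II antigen presentation, came from few cells: 1 cell of WT sham held 839 of 878 such UMIs in that sum, and 2 cells of WT at 72 h held 988 of 1044. Results that rest on these cells are given with and without them.

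Siglecf-positive cells made up a small share of neutrophils at 24 h after ligation and the largest share at 72 h, in both genotypes. They were 19.6% of neutrophils in WT sham (exact binomial interval 16.5 to 23.0) and 13.0% in KO sham (10.2 to 16.4). At 24 h after ligation the shares were 9.14% in WT (7.32 to 11.2) and 8.77% in KO (7.75 to 9.88). They were 36.8% in WT (32.4 to 41.3) and 31.6% in KO (26.0 to 37.7) at 72 h. The interval of WT sham lay just above that of KO sham, while at 24 h and at 72 h after ligation the intervals of the 2 genotypes overlapped.

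Because cells differ in depth, each neutrophil was also thinned to 1000 UMIs, which left no neutrophil out. The shares were then 10.9% and 6.63% in WT and KO sham, 2.29% and 3.99% at 24 h, and 19.8% and 17.6% at 72 h, so both 72 h libraries still stood above the other 4. Cells of other classes at the same depth held a Siglecf UMI in 0% to 1.2% of cells, the background against which these shares stand. Of all kept cells with a Siglecf UMI, 34.2% (KO at 72 h) to 79.2% (WT at 24 h) met the rule. At 72 h the cells that did not meet it mostly lacked Csf3r or fell under the S100a8 and S100a9 limit. Cells just inside that limit, with 1% to 2% of their UMIs in the 2 genes, held Siglecf in 76 of 376 cases, and cells just outside, with 0.5% to 1%, in 46 of 221. The members' share of all kept cells ranged from 1.08% in KO sham to 3.93% in WT at 72 h.

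**Figure D1:**
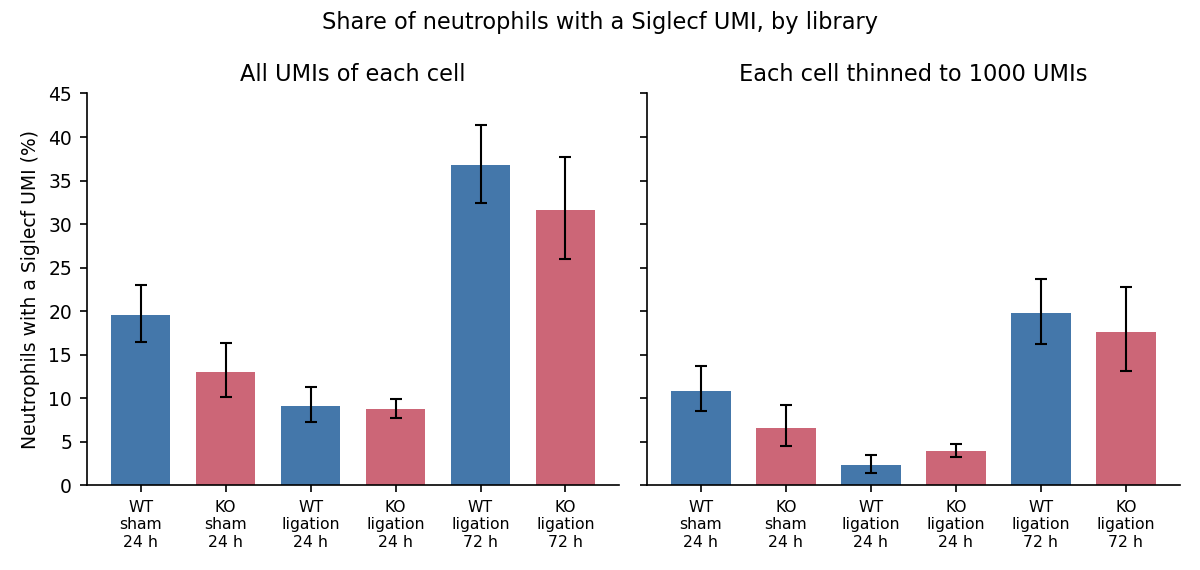
Share of neutrophils with at least 1 Siglecf UMI (y axis, percent) in each of the 6 libraries, from all UMIs of each cell (left) and after thinning each cell to 1000 UMIs (right). Bars are shares, blue for WT and red for KO, and lines are exact 95% binomial intervals; both libraries of 72 h lie above the other 4 in each panel.

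Within each library the 2 neutrophil populations came from the same suspension, so the 6 paired differences could be tested over libraries. Siglecf-positive neutrophils differed from Siglecf-negative ones mostly by lower levels. Of 4602 genes tested with edgeR's quasi-likelihood test with the library as a block, 13 were higher (0.282%) and 52 were lower (1.13%) at an adjusted p under 0.05. The genes that fell included secreted protease inhibitors, granule proteins, and genes of glucose uptake and glycolysis. The genes that rose did so by smaller steps and shared no list. A gene's difference is given as Siglecf-positive minus Siglecf-negative on the log2 scale, with the SD over the 6 libraries. Differences include a normalization between the summed profiles (TMM) that the CPM values do not, so the 2 need not match exactly.

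Among the genes that rose, Ptgs1 encodes cyclooxygenase-1, the constitutive enzyme of prostaglandin synthesis. It stood at 144 CPM in WT sham, 140 in KO sham, 88.8 and 158 at 24 h and 239 and 223 at 72 h, and at 94.7, 119, 54.6, 83.4, 134 and 157 CPM in the Siglecf-negative cells of the same libraries. The difference was 0.58 (SD 0.25, n = 6 libraries; adjusted p = 0.0215), and the positive cells were higher in 6 of 6 libraries.

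The other named genes that rose, each in 6 of 6 libraries, were Tmem273 (0.89), Pmf1 (0.86), Scimp (0.69), Mrpl52 (0.57), Mvb12b (0.54), Otulinl (0.51), Gngt2 (0.49) and Igfbp6 (0.37). Scimp is an adaptor of pattern recognition and MHC class II signalling. Mrpl52 belongs to the mitochondrial ribosome, and its SD over libraries was 0.20 (adjusted p = 0.00581). When each library was left out in turn, Mvb12b, Otulinl and Igfbp6 were called in 0 of 6 analyses, Tmem273 in 1, Ptgs1, Scimp and Gngt2 in 3 and Pmf1 in 5. Gngt2 encodes a G protein gamma subunit, at 266 to 1439 CPM in the positive cells. Tmem273, the largest of these differences, varied most, from 0.03 in WT sham to 1.53 in KO at 72 h, and rested on 120 UMIs. Gps1, Slco4a1 and 9130015A21Rik were also called higher, below the 50 CPM needed to be named.

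Among the genes that fell, Cstdc4 had the smallest adjusted p of all genes. It is a member of the stefin A cluster of intracellular cysteine protease inhibitors, whose near-identical copies the counting could split. It stood at 324 against 716 CPM in WT sham, 360 against 545 in KO sham, 1078 against 2078 and 1217 against 1899 at 24 h, and 261 against 503 and 156 against 451 at 72 h. The difference was −1.02 (SD 0.37, n = 6 libraries; adjusted p = 0.000196), lower in 6 of 6 libraries. Stfa2l1 of the same cluster fell by 0.79 (adjusted p = 0.00382). Other protease inhibitors fell too: Slpi, which inhibits neutrophil elastase, by 0.89 (adjusted p = 0.0215), Wfdc21 by 0.80 (adjusted p = 0.0184) and Wfdc17 by 0.73 (adjusted p = 0.00688).

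S100a6, a small calcium-binding protein, fell by 0.91 (SD 0.56; adjusted p = 0.00549). Gk, glycerol kinase, and Mgst1, a microsomal glutathione transferase, fell by 1.3 and 1.29 (adjusted p = 0.00549 and 0.00688), on 45 and 144 UMIs in the positive cells. Mmp8, the neutrophil collagenase, fell by 0.93 (SD 1.3; adjusted p = 0.0476), with 353 UMIs of which 8.8% were in 1 cell. Thbs1, thrombospondin-1, fell by 0.91, Smox, spermine oxidase, by 0.85, Fndc3a by 0.84 and A530064D06Rik by 1.29. The plot of 19 named genes shows that all 6 libraries lay on 1 side of 0 for each, as the naming rule required.

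**Figure D2:**
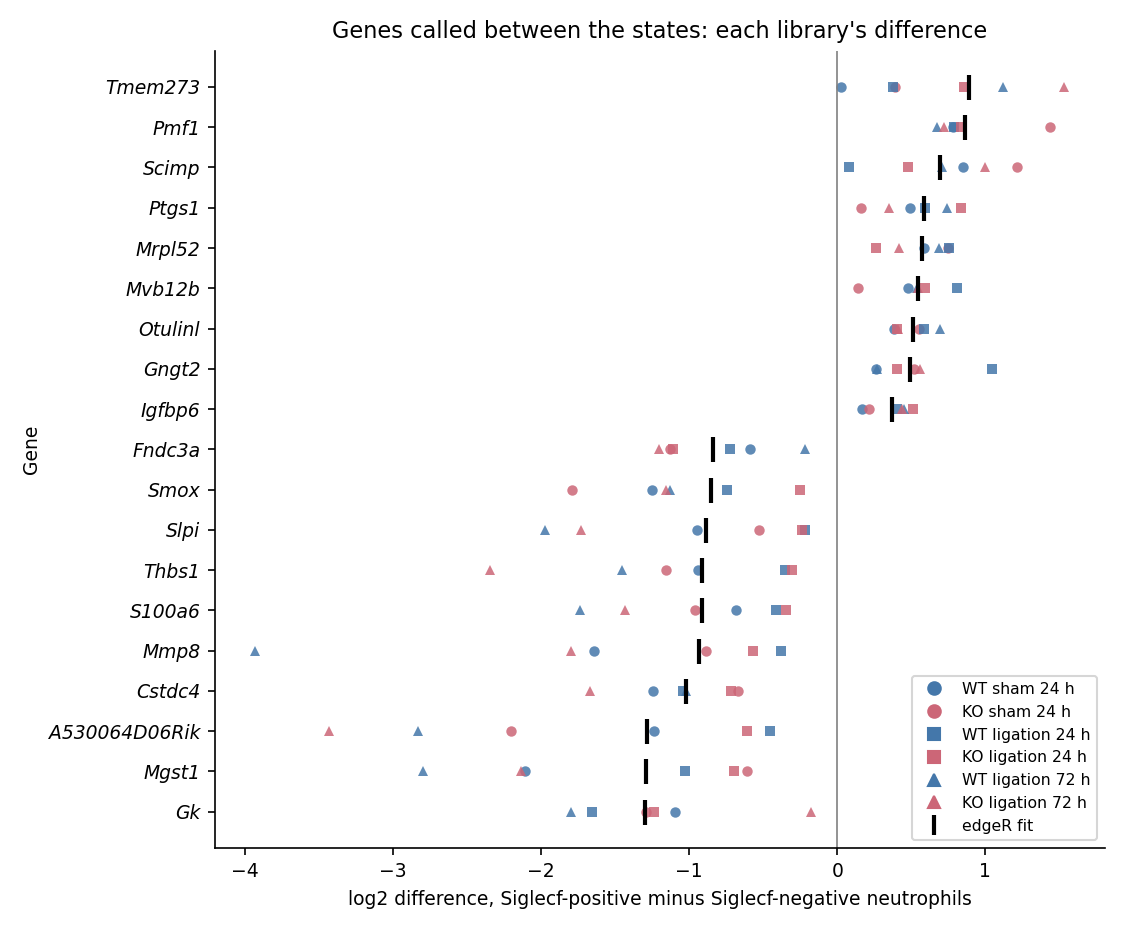
Log2 difference between Siglecf-positive and Siglecf-negative neutrophils (x axis) for 19 named genes (y axis), 1 symbol per library (colour for genotype, shape for condition) and a black bar for the edgeR estimate. The 9 genes at the top are higher and the 10 below are lower in every library, and the 72 h libraries reach furthest to the left for Mmp8, A530064D06Rik and Mgst1.

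Called genes far higher in other cell types were kept apart. Fn1, S100a4, Lyz2, Lgals3, Vim, Timp2 and Acta2 were called lower, and each was more than 4 times as high in monocyte and macrophage cells, fibroblasts or another class as in either neutrophil state. Some of the genes described above and below were also higher in another class, within that limit, such as Thbs1, Pgk1 and Ccl6 in monocyte and macrophage cells. The summed monocyte and macrophage markers were higher in the Siglecf-positive cells in 2 of 6 libraries, and their part in these calls was not tested. Ngp, a granule protein of immature neutrophils, was called at −3.70, but 25% of its 32 UMIs in positive cells were in 1 cell and its difference ranged from −9.22 to 0.37.

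The 12 gene lists had 0 members called higher, and the share of all tested genes called lower was 1.13%. Of 17 tested granule and early neutrophil genes, 6 fell (Slpi, Wfdc21, Lcn2, Lyz2, Mmp8 and Ngp), and the median difference was −0.60 against 0.003 over all genes. Lcn2, the siderophore-binding lipocalin, fell by 0.67 (SD 0.51; adjusted p = 0.0193). Retnlg, a resistin-like gene of mature blood neutrophils, had the second largest estimate of the list after Ngp, −1.67, at an adjusted p of 0.0502, and is described with time after ligation. Mmp9 and Chil3, also of this list, differed by 0.02 each and were not called.

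Of 24 tested genes of glycolysis and the hypoxia response, 4 fell and all 24 estimates were below 0, with a median of −0.35. Pfkp, a phosphofructokinase, fell by 0.80 (adjusted p = 0.024, lower in 5 of 6 libraries), Slc2a3, the glucose transporter GLUT3, by 0.73 (adjusted p = 0.0193), Hilpda, an inhibitor of lipid droplet breakdown, by 0.70 (adjusted p = 0.0215) and Pgk1, phosphoglycerate kinase, by 0.62 (adjusted p = 0.0174). Pgk1 stood at 125 against 149 CPM in WT sham, 86.6 against 134 in KO sham, 168 against 332 and 208 against 282 at 24 h, and 117 against 182 and 229 against 257 at 72 h. It was lower in 6 of 6 libraries, and furthest apart in WT at 24 h. Gapdh (−0.41, adjusted p = 0.0544) and Eno1 (−0.36, adjusted p = 0.0921) missed the threshold.

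The promoters of this list are shown because ACGTG, the core that hypoxia-inducible factors bind, is a common feature of such genes. Searched on both strands in the 250 bases before each RefSeq start (GRCm38.p6), where CACGT is the same motif on the other strand, the motif was present for 14 of the 21 list genes with a promoter entry, against 18.5% of 27025 genes and 16.6% of 32851 promoters. Of the 3 called genes with an entry, Pgk1 and Hilpda held it. The stretches around the matches, on the plus strand of chromosomes X and 6, are at chrX:106186920-106187003 and chr6:29272553-29272617, with the motif in capitals.
Pgk1: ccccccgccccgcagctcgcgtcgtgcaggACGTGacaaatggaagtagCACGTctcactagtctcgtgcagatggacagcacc
Hilpda: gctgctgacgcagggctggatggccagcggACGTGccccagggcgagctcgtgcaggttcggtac
Pgk1 held 2 matches and Hilpda held 1. A match is a description of the sequence and does not show binding in these cells.

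Of 15 tested chemokines and cytokines, 3 fell: Ccl6 by 0.77 (adjusted p = 0.00696), Cxcl3, a neutrophil chemoattractant, by 0.64 (adjusted p = 0.00382) and Osm, oncostatin M, by 0.50 (adjusted p = 0.0178). Cxcl3 was at 651 against 1072 CPM in WT sham and 653 against 840 in KO sham. At 24 h it was at 3225 against 4799 in WT and 1607 against 2723 in KO, and at 72 h at 282 against 322 and 229 against 328. The list's median was −0.38. Of 19 tested chemokine and homing receptors, 2 fell, among them the formyl peptide receptor Fpr2 (−0.47, adjusted p = 0.0476), and the median was −0.12.

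Genes proposed as markers of these cells were not called between the 2 populations. Ccl3, a chemokine for monocytes and other leukocytes, stood at 966 against 519 CPM in WT sham and 726 against 676 in KO sham. At 24 h it was at 1253 against 1165 in WT and 767 against 1020 in KO, and at 72 h at 787 against 640 and 670 against 628. The difference was 0.08 (SD 0.42; adjusted p = 0.861). Cxcr4, the receptor that retains neutrophils in bone marrow and rises with their age, differed by 0.17 (adjusted p = 0.575), with 337 to 731 CPM in positive and 292 to 655 CPM in negative cells. Csf1, the macrophage growth factor, differed by 0.04 (adjusted p = 0.938). In the 59 cells with 3 or more Siglecf UMIs, the mean over libraries was 640 CPM for Csf1 (520 to 797), against 397 (251 to 590) at 0. It was 657 (312 to 1046) against 470 (292 to 655) for Cxcr4, and 1713 (278 to 6444) against 775 (519 to 1165) for Ccl3. These means rest on as few as 4 cells in a library and were not tested. With each of the 760 cells thinned to 1000 UMIs, 64 held UMIs of both Ccl3 and Csf1, 75 of both Ccl3 and Cxcr4, and 382 of neither Cxcr4 nor Csf1.

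The remaining lists moved little. Of 23 tested myeloid surface receptors, the C-type lectin Clec4d (−0.61, adjusted p = 0.0178) and the inhibitory receptor Lilrb4a (−0.43, adjusted p = 0.024) fell. Lilrb4a has a close paralog, Lilr4b, which was also called at −0.52, and the counting could split them. Lgals3 was the 1 call of 21 lysosome, lipid and iron genes, and the cystine transporter Slc7a11 (−0.70, adjusted p = 0.0215) the 1 call of 15 NADPH oxidase and antioxidant genes. None of 20 NF-kB genes, 19 survival and death genes and 16 interferon-induced genes outside the rule was called. Nor was any of 16 immediate early and heat shock genes and 18 ribosomal protein genes. The medians of these lists, in the same order, were −0.15, −0.05, −0.19, −0.10 and 0.19. The rule had removed neutrophils at or above its limit on interferon UMIs from both populations. The interferon result thus covers only the cells kept, and cannot tell whether the states differ in these genes among all neutrophils.

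Outside the lists, G0s2, an inhibitor of lipolysis and a marker of neutrophils, fell by 0.52 (SD 0.22; adjusted p = 0.00549). Plaur, the urokinase receptor, fell by 0.63 (adjusted p = 0.00696), the tetraspanin Cd9 by 0.56 (adjusted p = 0.00581) and the granule proteoglycan Srgn by 0.40 (adjusted p = 0.0174). These 4 genes were chosen after their values were seen.

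**Figure D3:**
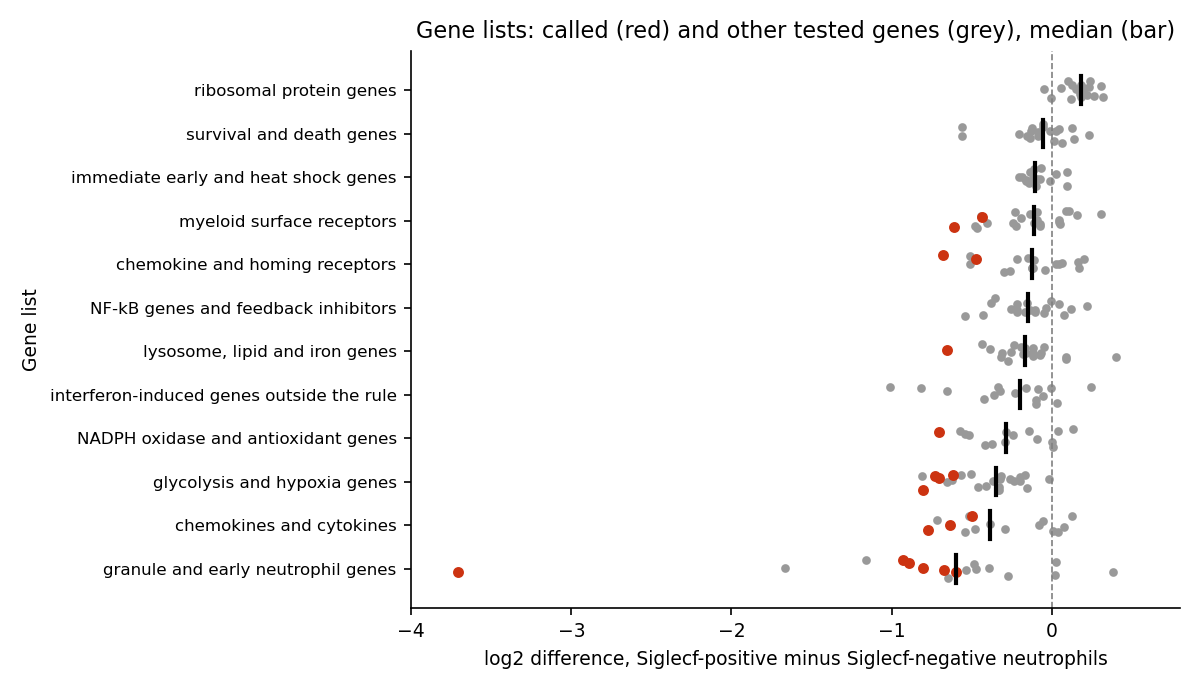
Log2 difference between Siglecf-positive and Siglecf-negative neutrophils (x axis) for every tested gene of the 12 lists (y axis), red where called, with a black bar at the list median and a dashed line at the median of all tested genes (0.003). Calls lie to the left in 7 lists, and the point furthest to the left is Ngp at −3.70.

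Of the 65 called genes, 17 were called in all 6 analyses that left out 1 library, among them Cstdc4, Gk, Mgst1, S100a6, Cxcl3, Ccl6, Plaur and, of those that rose, Mrpl52. Mmp8, A530064D06Rik and Lyz2 were called in 2 of the 6 and Fpr2 and Lilrb4a in 1. Leaving out libraries one at a time gave 4 to 9 genes higher and 26 to 56 lower. With cells holding at least 10 MHC class II UMIs left out, 27 genes were higher and 89 lower, and all 65 genes remained called.

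For a small share of genes, the difference between the 2 populations changed between 24 h and 72 h after ligation. This comparison was added after the ratios between conditions had been seen. In the interaction of Siglecf state with time after ligation, 23 of 4602 genes (0.5%) were called by edgeR, of which 21 had a more negative difference at 72 h. The 4 libraries of the contrast are 2 per time point. At 24 h, 13 of 80 Siglecf-positive cells in WT and 44 of 246 in KO held at least 2 Siglecf UMIs. At 72 h these were 70 of 173 in WT and 25 of 81 in KO, and the part of this in the interaction was not tested. Of the 23 genes, 9 were also called between the states from the same profiles, so the 2 sets of calls are not independent.

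After Ngp, which rests on few cells, Retnlg had the largest such change. In Siglecf-positive neutrophils it stood at 578 CPM in WT sham, 1345 in KO sham, 5635 and 3440 at 24 h, and 138 and 89.3 at 72 h. The Siglecf-negative neutrophils held 2498, 2117, 5668, 4653, 2193 and 1737 CPM in the same order. The 2 populations were thus close in WT at 24 h and far apart at 72 h. The TMM-normalized log2 differences were −0.10 and −0.51 at 24 h and −4.06 and −4.41 at 72 h, in WT and KO. The interaction was −3.88 (adjusted p = 7.98e-06), and it was called in all 6 analyses that left out a library (highest adjusted p = 0.00294). At 24 h in WT, 1 cell held many of the Retnlg UMIs (24.2% of those of WT at 24 h and 72 h together), and without the top cell of each gene the interaction was −3.88.

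At 72 h, Retnlg UMIs were counted by the number of Siglecf UMIs in a cell. In WT, 1456 Retnlg UMIs were found in 297 cells with 0 Siglecf UMIs, 40 in 103 cells with 1, 19 in 47 cells with 2 and 1 in 23 cells with 3 or more, so the count per cell was no lower at 2 Siglecf UMIs than at 1. In KO the counts were 609 in 175 cells, 16 in 56 cells, 0 in 18 cells and 0 in 7 cells.

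Fabp4, a lipid-binding protein of endothelial cells, A530064D06Rik and Cpne2 came next among the genes with a more negative difference at 72 h, at −3.14, −2.76 and −2.13 (adjusted p = 8.49e-05, 0.0484 and 0.0432). Fabp4 is far higher in endothelial cells than in neutrophils.

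Of the genes named between the states or held by the lists, Slpi also changed with time. Its CPM in positive against negative cells was 1299 against 2333 and 1338 against 1835 at sham, 1174 against 1276 and 1345 against 1502 at 24 h, and 413 against 1535 and 452 against 1349 at 72 h. Its level in the negative cells was thus similar at both times, while that in the positive cells was lower at 72 h. The interaction was −1.64 (adjusted p = 0.000146). S100a6 (−1.21, adjusted p = 0.00041) and Ccl6 (−1.06, adjusted p = 0.00738) were called as well. Unlike Retnlg and Slpi, neither was called in every analysis that left out a library. For S100a6 the 72 h differences were −1.74 in WT and −1.43 in KO, against −0.41 and −0.34 at 24 h.

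Both genes in the other direction were Txn2, mitochondrial thioredoxin (2.22, adjusted p = 0.0484), and Sec61g, a subunit of the protein translocation channel (1.10, adjusted p = 0.0363). The number of genes called depended on the library left out: 4 without WT or without KO at 24 h, 14 without WT at 72 h, 79 without KO at 72 h, and 36 and 56 without WT sham and KO sham.

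**Figure D4:**
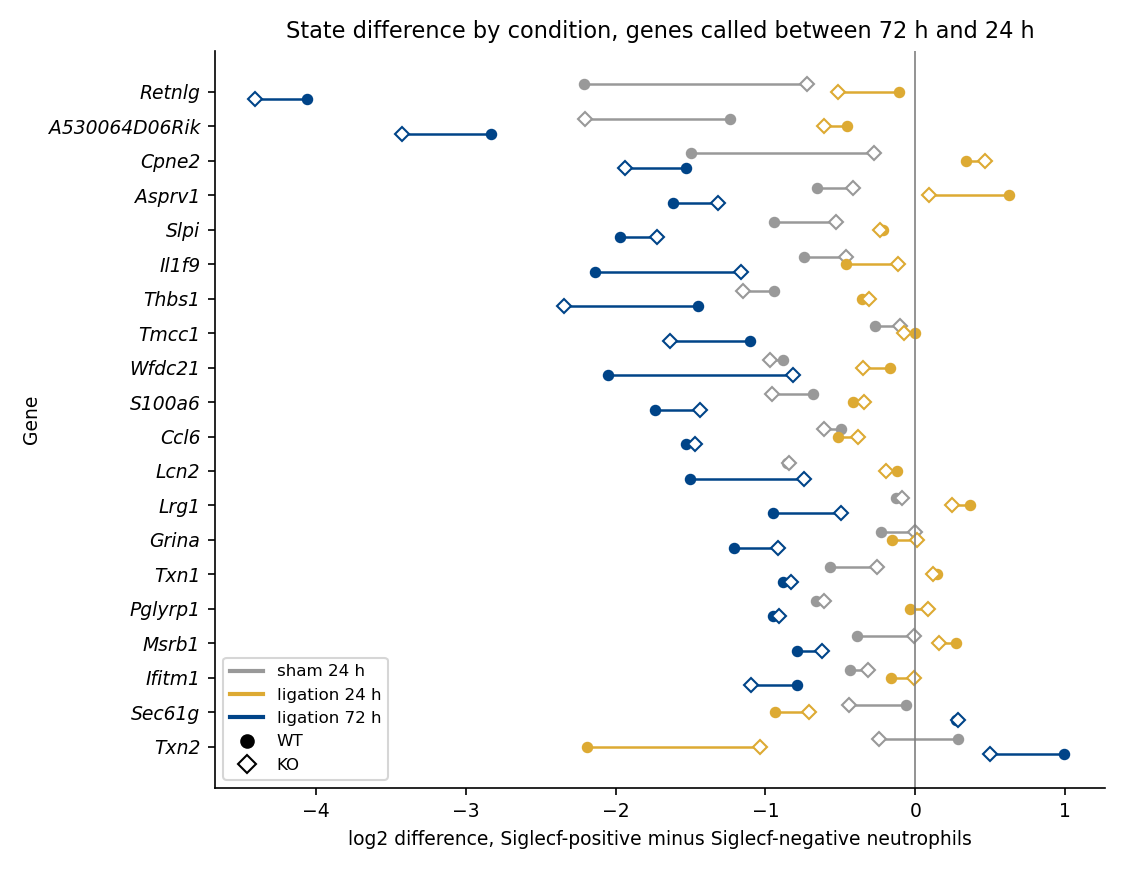
Log2 difference between Siglecf-positive and Siglecf-negative neutrophils (x axis) at sham, 24 h and 72 h after ligation, for 20 of the 23 genes whose difference changed between 72 h and 24 h (y axis); filled circles are WT and open diamonds KO, joined by a line. For Retnlg both 72 h values lie near −4 and both 24 h values near 0. Ngp, which rests on few cells, and Fabp4, an endothelial gene, are among those left out.

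**Figure D5:**
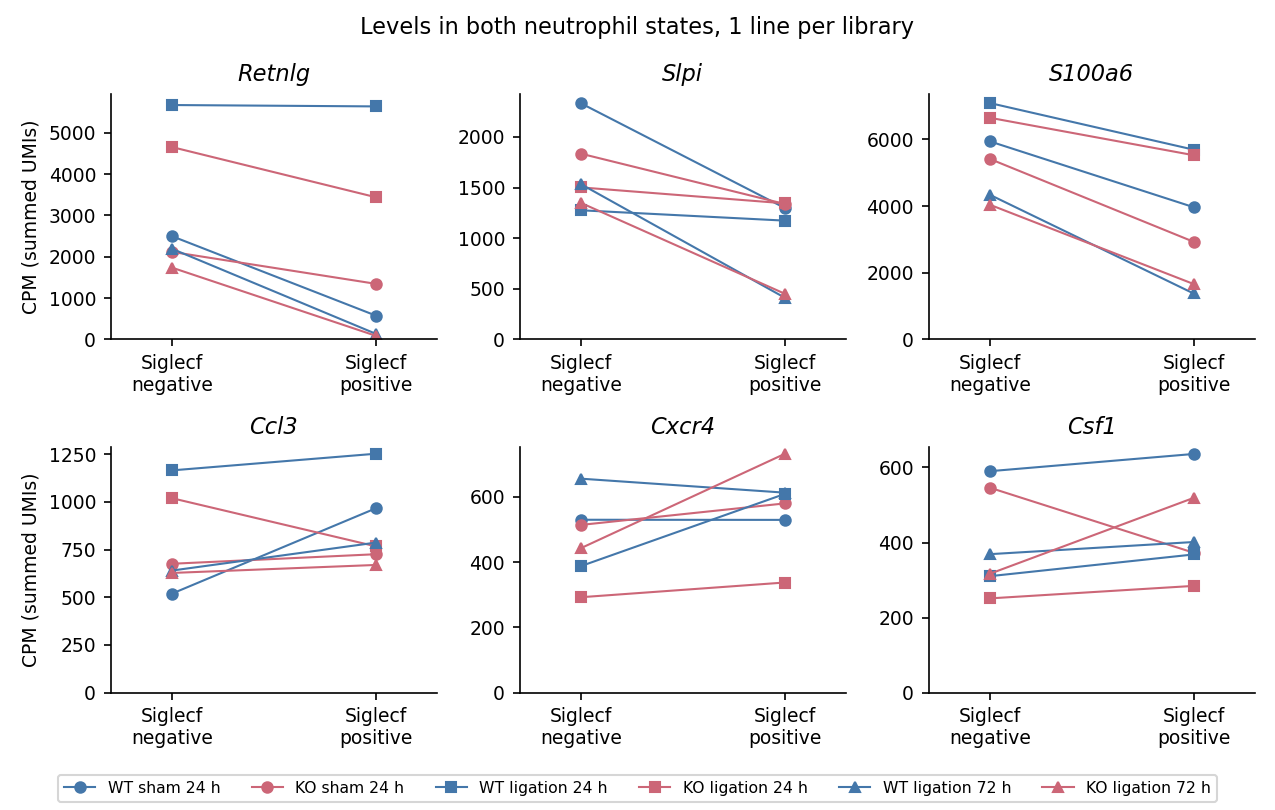
CPM (y axis, from 0) in Siglecf-negative and Siglecf-positive neutrophils, 1 line per library, for Retnlg, Slpi, S100a6, Ccl3, Cxcr4 and Csf1. Lines fall in all 6 libraries for Retnlg, Slpi and S100a6, and go both ways for Ccl3, Cxcr4 and Csf1.

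In the interaction of state with ligation (2 sham against 4 ligation libraries), 0 of 4602 genes were called by edgeR. Of the 4602, 172 had an unadjusted p under 0.05, and 0 genes were called after thinning. In the interaction with genotype (3 against 3 libraries), H2-Ab1 and H2-Aa were called (0.0435%), at −5.47 and −5.34. UMIs of these MHC class II genes came from few cells in both genotypes. In KO sham, 1 Siglecf-negative cell held 543 of the 693 UMIs of H2-Aa, H2-Ab1, H2-Eb1 and Cd74 in that sum. Cells with at least 10 such UMIs were 4 Siglecf-positive and 27 Siglecf-negative cells over all libraries. With these cells left out 0 genes were called by edgeR and 146 had an unadjusted p under 0.05.

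Between conditions, the Siglecf-positive neutrophils themselves differed most between 24 h and 72 h after ligation. Genes needed 50 UMIs over a pair of libraries, and a gene past 2-fold is counted as higher or lower with no test. At 24 h against sham, 95 of 1672 genes (5.68%) were higher and 184 (11%) lower in WT, and 91 of 2076 (4.38%) higher and 82 (3.95%) lower in KO. At 72 h against 24 h, 566 of 2095 (27%) were higher and 222 (10.6%) lower in WT, and 407 of 2231 (18.2%) higher and 235 (10.5%) lower in KO. The 24 h libraries enter both comparisons.

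The median gene was shifted by −0.12 in WT and −0.13 in KO at 24 h against sham, and by 0.26 and 0.17 at 72 h against 24 h, on the log2 scale. Relative to it, the counts higher and lower were 117 and 136, and 118 and 57, at 24 h against sham in WT and KO, and 456 and 326, and 302 and 306, at 72 h against 24 h. Of the genes measured in both genotypes, 29 of 1222 were higher and 8 lower in both at 24 h, and 235 of 1444 higher and 113 lower in both at 72 h against 24 h.

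The genes higher at 24 h than at sham included Chil3, a chitinase-like protein, with 434 CPM in WT sham and 1025 in KO sham against 2554 and 4791 at 24 h. Its log2 ratio was 2.56 (interval 2.30 to 2.83) in WT and 2.22 (1.99 to 2.47) in KO. Cd177, a surface protein of neutrophils, was higher by 3.92 (3.00 to 5.01) and 2.11 (1.10 to 3.35), Osm by 1.99 (1.60 to 2.40) and 1.94 (1.41 to 2.52), and the receptor Tarm1 by 2.02 (1.26 to 2.86) and 1.84 (0.56 to 3.50). The Siglecf-negative neutrophils had ratios of 2.34 and 2.34 for Chil3 and 3.95 and 2.19 for Cd177, so these genes differed in both populations. Lower genes were Otulinl (−1.90 and −1.43), Clec4a2 (−1.62 and −1.46), Arhgap5 (−1.71 and −1.36) and Gm2a, the activator of ganglioside breakdown (−1.56 and −1.30), in WT and KO.

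At 72 h against 24 h the lowest ratios were those of neutrophil granule and maturation genes. Retnlg had a ratio of −5.36 (−5.75 to −4.98) in WT and −5.27 (−6.08 to −4.57) in KO, against −1.37 and −1.42 in the Siglecf-negative cells. Cd177 (−5.34 and −3.78), Mmp8 (−4.66 and −4.05) and Chil3 (−3.61 and −4.39) were lower in both genotypes. They were lower in the Siglecf-negative cells too, with ratios of −3.64 and −3.44 for Cd177, −1.85 and −2.81 for Mmp8, and −2.97 and −4.59 for Chil3. Mmp8 in WT and Cd177 in KO rest on 1 UMI at 72 h, with intervals of −11.6 to −3.71 and −10.7 to −2.87. Of the granule and early neutrophil genes with enough UMIs, 9 of 13 in WT and 11 of 14 in KO were lower past 2-fold, with medians of −2.66 and −1.64. The same genes in the Siglecf-negative cells had medians of −0.91 and −1.0.

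Among chemokines and cytokines, 7 of 12 genes in WT and 6 of 12 in KO were lower past 2-fold at 72 h, with medians of −1.19 and −1.0. The same genes had medians of −1.31 and −0.66 in the Siglecf-negative cells. Cxcl3 had ratios of −3.52 (−3.80 to −3.24) and −2.81 (−3.30 to −2.36), and Ccl6 of −3.43 (−3.71 to −3.16) and −2.97 (−3.39 to −2.57). Ccl4, which attracts monocytes and lymphocytes, had ratios of −2.72 (−2.93 to −2.52) and −1.80 (−2.20 to −1.44). Il1b, an inflammatory cytokine, differed little, by −0.26 (−0.32 to −0.20) and −0.05 (−0.12 to 0.02). Of the chemokine and homing receptors, 10 of 19 in WT and 6 of 18 in KO were lower and 3 and 3 higher, with medians of −1.05 and −0.82 against −0.66 and −0.72 in the Siglecf-negative cells. Myeloid surface receptors were lower past 2-fold in 9 of 21 and 8 of 21 cases and higher in 0, with medians of −0.82 and −0.82 against −0.55 and −0.48.

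Among the genes named as higher at 72 h in both genotypes was Ptma, prothymosin alpha, at 148 and 157 CPM at 24 h and 1268 and 1283 CPM at 72 h in WT and KO, a ratio of 3.10 (2.66 to 3.57) and 3.03 (2.70 to 3.37). Polr2f, an RNA polymerase subunit (3.27 and 3.09), Uqcc2, an assembly factor of respiratory complex III (4.35 and 3.04, the first on 2 UMIs at 24 h, interval 3.04 to 8.01), and Atp5g1, a subunit of ATP synthase (3.21 and 2.94), stood with it. All 4 genes were also higher at 72 h in the Siglecf-negative cells, with ratios between 1.68 and 2.80.

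Ribosomal protein genes were higher at 72 h than at 24 h in 17 of 18 cases in WT and 14 of 18 in KO past 2-fold, with medians of 2.40 and 1.25. In the Siglecf-negative cells the medians were 1.37 and 1.64. Rps18 gave 31 UMIs at 24 h and 439 at 72 h in WT, a ratio of 3.30 (2.78 to 3.88) with 25.7% of these UMIs in 1 cell, and 111 and 97 UMIs in KO, a ratio of 1.81 (1.40 to 2.22). At 24 h against sham the 2 genotypes differed: 15 of 17 genes were lower past 2-fold in WT (median −1.40) and 0 of 17 in KO (median −0.18), and this contrast between genotypes was not tested. With the highest doublet scores removed, which took 3 cells out of WT sham, 2 of 16 were lower in WT with a median of −0.83. In the Siglecf-negative cells, with doublets kept, the medians at 24 h against sham were −0.89 in WT and −0.17 in KO.

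KO against WT gave few genes past 2-fold in any condition, and with 1 library a genotype no difference has a replicate check. At sham, 19 of 1365 genes (1.39%) were higher and 46 (3.37%) lower in KO. At 24 h after ligation 53 of 2296 (2.31%) were higher and 33 (1.44%) lower, and at 72 h 21 of 1913 (1.1%) were higher and 32 (1.67%) lower. Of the 4 lower genes named at 24 h after ligation, Ccl4 had the most UMIs, at 3676 CPM in WT and 1228 in KO at 24 h after ligation, a ratio of −1.58 (−1.71 to −1.45). Its ratio was −0.65 (−0.84 to −0.45) at sham and −0.66 (−1.09 to −0.26) at 72 h, so the KO library was lower in all 3 conditions, though 32.9% of the sham UMIs were in 1 cell. In the Siglecf-negative cells the ratios were 0.38, −0.73 and −0.37 at sham, 24 h and 72 h.

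At 24 h after ligation KO was also lower in Clec12a, an inhibitory C-type lectin (−1.79, −2.19 to −1.40), P4hb (−1.60) and Safb (−1.51), and higher in Gm34084 (1.99), Mindy2 (1.17) and Mien1 (1.13). At 72 h it was lower in Ifi27l2a, an interferon-induced gene, with 2289 CPM in WT and 658 in KO. The ratio was −1.80 (−2.09 to −1.52), against −1.60 in the Siglecf-negative cells. The rule's limit on interferon UMIs had kept 470 of 542 neutrophils in WT and 256 of 266 in KO at 72 h. The part of this selection in the Ifi27l2a ratio was not tested. Upp1, uridine phosphorylase (−2.25), Gm20234 (−1.91) and Ndufa12 (−1.78) were lower on 5 or 6 UMIs in KO. Hist2h2aa1 (1.68), Lars2 (1.48), Ccnt1 (1.33) and Hnrnpa0 (1.28) were higher.

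At sham, Cited2, a transcriptional coregulator (1.97), Dync1i2 (1.58), Olr1, the oxidized lipoprotein receptor (1.51, with 34.0% of UMIs in 1 cell), and Pabpc1 (1.44) were higher in KO. Crip1 (−4.44), Ckb (−3.61) and Ifi30 (−3.54) were lower, with between 76.2% and 83.0% of their UMIs in 1 cell. With the highest doublet scores removed, these 3 ratios were −1.10, −1.25 and −1.42. Stfa1, of the stefin A cluster, gave 99 UMIs in WT, 59.6% of them in 1 cell, and 0 in KO, so its log2 ratio was at most −3.92 when the floor of 3 UMIs in that library was used. None of the chemokines and cytokines was past 2-fold between genotypes at sham (0 of 11) or at 72 h (0 of 11), and 2 of 12 were lower in KO at 24 h.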

How the data were processed

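The deposited files hold raw UMI counts per gene and cell, made by the authors with Cell Ranger 6.0.0 on mm10, per the submitters' processing notes. Members and gene lists were chosen with earlier results of these data known. Cells of a state were summed per library. The paired test used edgeR 4.0.16 (filterByExpr, TMM, quasi-likelihood, Benjamini-Hochberg over 4602 genes) with the library as block, without the 12 genes of the rule. Cells of 1 library come from the same 4 mice, which is the source of the pairing. On simulated counts (4469 genes) it recovered 94.6% of 93 genes changed by 1 and 100% of 90 changed by 2 on the log2 scale, with 5 false calls among 183. The simulation gave all genes 1 common dispersion. It thus does not cover smaller changes, or genes that vary more between libraries. Condition ratios are ratios of summed UMIs in CPM with exact conditional Poisson intervals, and shares have exact binomial intervals. Both cover counting error only. Doublets were kept, and removal of the highest Scrublet scores (0.8% per 1000 cells) was an alternative, as were DESeq2 1.42.0, other filters, thinning to 1000 UMIs and leaving out libraries, MHC class II cells or the top cell of each gene. Summed depth is given in the report.

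Named genes between states were at most 15 higher and 10 lower by size among called genes with at least 50 CPM, the same direction in every library and at least 0.25 of the CPM of the highest other class. Interaction genes were named up to 5 a direction, and others are given as values. Condition genes were the 4 highest and 4 lowest ratios with at least 100 CPM and the same class limit, past 2-fold in both genotypes for ligation and time. Aldoa was taken by its Ensembl identifier, since 2 identifiers carry the symbol. The interaction with time after ligation, the MHC class II and top cell settings and leaving out libraries from interactions were added after the data were seen. A few genes that met these rules are not reported here by name but stay in every fit and count.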

Additional observations from a re-analysis of the deposited data

Results flagged for a closer look

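The difference between Siglecf-positive and Siglecf-negative neutrophils changed with time after ligation for 23 genes by an interaction test (edgeR). Those reported here are given with the 72 h difference minus the 24 h difference on the log2 scale as the value. The values were −3.88 for Retnlg, −2.76 for A530064D06Rik, −2.13 for Cpne2, −1.85 for Asprv1, −1.64 for Slpi, −1.52 for Il1f9 and −1.50 for Thbs1. They were −1.26 for Tmcc1, −1.23 for Wfdc21, −1.21 for S100a6, −1.06 for Ccl6, −1.06 for Lcn2, −1.05 for Lrg1 and −1.02 for Grina. Txn1 (−0.99), Pglyrp1 (−0.97), Msrb1 (−0.93) and Ifitm1 (−0.85) followed, and Sec61g (1.10) and Txn2 (2.22) went the other way. The highest adjusted p was 0.0484. Most of these genes were not called in every analysis that left out a library.

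Ngp had the lowest value, −11.5, and its Siglecf-positive sums held 32 UMIs in all. Fabp4 had −3.14, and its level in endothelial cells, 27317 CPM, was far above its highest level in either neutrophil population, 318.6 CPM, and the part of endothelial RNA in its value was not tested.

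With genotype, H2-Ab1 (−5.47) and H2-Aa (−5.34) differed by the same kind of test. In the Siglecf-positive sum of WT sham 1 cell held 839 of 878 UMIs of the 4 MHC class II genes counted. In the Siglecf-negative sum of KO sham 1 cell held 543 of 693. Without cells of at least 10 such UMIs neither gene was called.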

How the results depend on the processing

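With no replicate block, so that the pairing by library was ignored, 0 genes were higher and 0 lower between the states by edgeR, with 129 at an unadjusted p under 0.05. With positive cells of at least 2 Siglecf UMIs, 0 were higher and 15 lower. No filter on low counts gave 292 lower. Without the highest doublet scores 20 were higher and 82 lower, and without MHC class II cells 27 and 89. Leaving out libraries gave 4 to 9 higher and 26 to 56 lower. DESeq2, its size factors, thinning and the eosinophil setting stayed within 1.5 times of both counts.

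The interaction with ligation had 0 to 3 calls when a library was left out (3 without KO sham, 1 without WT at 72 h). That with genotype had 4 with DESeq2's size factors, 0 after thinning, 0 without the top cell of each gene, 0 without MHC class II cells and 0 to 25 without a library. It was 25 without WT at 24 h, and 1 or 0 without the others. That with time had 64 without the top cell and 4 to 79 without a library. The cause of these changes was not tested.

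With at least 2 Siglecf UMIs the shares were 6.37%, 3.31%, 1.49%, 1.57%, 14.9% and 9.77% in WT and KO sham, at 24 h and at 72 h. Thinning gave 10.9%, 6.63%, 2.29%, 3.99%, 19.8% and 17.6%.

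At 100 UMIs over the pair the genes past 2-fold fell to 155 (WT) and 65 (KO) at 24 h against sham, 431 and 329 at 72 h against 24 h, and 23, 18 and 19 for KO against WT at sham, 24 h and 72 h, since fewer genes were counted. Without the highest doublet scores there were 165 for WT at 24 h against sham and 37 for KO against WT at sham, and without the top cell 174 and 30. Some directions changed. In KO at 72 h against 24 h, 407 genes were higher and 235 lower, but relative to the median gene 302 and 306. At 24 h after ligation the share was 9.14% in WT and 8.77% in KO with all UMIs. It was lower in WT than in KO after thinning and with at least 2 Siglecf UMIs. Of the values of counts and shares, 59 moved, and the other 67 were within 1.5 times, or within the interval, of the main value. Of the values of single named genes under alternatives, 387 kept their side of the threshold and 160 missed it. The 20 genes named between the states all missed it with no block.

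With 1 library per group, differences between conditions have no replicate check, and sums of 63 to 246 cells limit genes under about 50 UMIs.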
